A study of Mus musculus with 5 samples.

Results

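The genes of protein folding and of entry into the endoplasmic reticulum (ER) were followed through a time course of macrophages in lipopolysaccharide (LPS). Members were all genes with a probe assigned to 1 gene and a value on all 5 arrays whose symbol starts with Hsp (heat shock), Dnaj, Pdia, Sec61, Sec62, Sec63, Ssr, Spcs or Cct and a number, or is Calr, Canx, Xbp1, Atf4, Ddit3, Herpud1, Sel1l, Hyou1, Sdf2l1, Manf or Creld2. The rule found 90 genes on 188 probes, of 8692 genes on 13876 probes in all. Of these 90, 41 rested on 1 probe and 49 on several. Hspg2, a matrix proteoglycan whose symbol also starts with Hsp, was left out. Hyou1 and Sec63 were not among the measured genes. Cct8l1 came in by its name, and the folding roles described below were not assigned to it.

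Bone-marrow-derived macrophages of BalbC mice, grown in human CSF-1, were measured on 5 two-channel arrays with 1 array for each time. The 0 h culture had no LPS, and the others had been in 10 ug/ml of LPS from S. minnesota for 0.5, 2, 7 and 21 h. All arrays shared a reference, RNA of C57BL6/J whole embryos at 17.5 days. There was no replicate and no culture without LPS at the later times, so LPS and time in culture cannot be told apart and no p-value was computed. Values are log ratios and are reported in units of that log ratio, since neither the base nor the direction was given in the sources used here. A positive value was read as more RNA in the macrophages than in the embryo. This reading is likely and not settled, and it rests on markers: Cd68, Lyz2 and Fcgr1, the 3 measured of 10 macrophage markers, had a median of 1.16 units at 0 h, and 5 genes of embryonic blood, liver and muscle one of -1.5. With the opposite direction, "higher" and "lower" would change places throughout.

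Proteins destined for secretion or membranes enter the ER through the Sec61 channel, lose their signal peptide to the signal peptidase, and fold with the help of Hsp70 and Hsp90 family chaperones, lectin chaperones and disulfide isomerases. When unfolded proteins accumulate there, the unfolded protein response raises transcription of these chaperones through Xbp1, Atf4 and Atf6. The cytosol has its own chaperones, among them Hsp70, Hsp90, the ring-shaped chaperonin CCT and the J proteins (Dnaj), which deliver clients to Hsp70, and many of these are controlled by heat shock factors. In activated macrophages the ER handles a large load of secreted cytokines, and Xbp1 is known to take part in Toll-like receptor responses.

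Some of the members carry, near their start, sequence elements through which these responses are known to act. The ER stress response element (ERSE, CCAAT and CCACG with 9 bases of any kind between them, on either strand) was present in the promoter window, from 250 bases before to 50 bases after the start in RefSeq on GRCm38.p6, of 7 of the 75 members that had a window (9.33%). Over all windows of this length the share was 0.119% (39 of 32851), and over genes it was 0.137% (37 of 27025). The related ERSE-II (ATTGG and CCACG with 1 base between them, either strand), which was added after the first motif had been searched, was in 2 members, Herpud1 and Dnajb11, and in 0.0365% of all windows. The heat shock element in its strict 3-block form (GAA, TTC and GAA with 2 bases after each of the first blocks, either strand) was in 5 members and in 0.603% of all windows. No member held more than 1 kind of these motifs, and a match is a description of letters, not a binding site. Shown here are the 250 bases before the start of 5 members, chosen because their changes are compared below, with the matches in capitals.
Hspa5, chr2:34771840-34772089, plus strand: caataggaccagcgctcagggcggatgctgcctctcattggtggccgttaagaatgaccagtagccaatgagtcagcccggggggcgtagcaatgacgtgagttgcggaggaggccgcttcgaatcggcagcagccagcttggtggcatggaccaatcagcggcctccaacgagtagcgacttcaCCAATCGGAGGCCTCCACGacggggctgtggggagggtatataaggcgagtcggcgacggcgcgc
Hsp90b1, chr10:86705445-86705694, minus strand: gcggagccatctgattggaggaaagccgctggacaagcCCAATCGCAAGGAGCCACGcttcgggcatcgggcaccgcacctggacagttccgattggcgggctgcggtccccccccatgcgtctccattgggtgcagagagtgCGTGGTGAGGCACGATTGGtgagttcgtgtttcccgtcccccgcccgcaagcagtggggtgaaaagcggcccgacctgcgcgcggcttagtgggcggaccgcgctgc
Calr, chr8:84846932-84847181, minus strand: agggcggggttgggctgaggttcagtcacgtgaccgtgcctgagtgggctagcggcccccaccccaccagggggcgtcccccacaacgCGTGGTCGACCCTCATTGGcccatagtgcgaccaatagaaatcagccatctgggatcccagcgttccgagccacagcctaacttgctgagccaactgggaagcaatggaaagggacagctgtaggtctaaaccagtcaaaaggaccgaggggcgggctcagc
Herpud1, chr8:94386179-94386428, plus strand: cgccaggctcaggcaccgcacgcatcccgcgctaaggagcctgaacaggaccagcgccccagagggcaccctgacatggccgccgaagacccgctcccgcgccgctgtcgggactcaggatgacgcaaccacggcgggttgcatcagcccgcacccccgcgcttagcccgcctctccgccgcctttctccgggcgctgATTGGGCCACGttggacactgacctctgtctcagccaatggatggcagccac
Hspe1, chr1:55087898-55088147, plus strand: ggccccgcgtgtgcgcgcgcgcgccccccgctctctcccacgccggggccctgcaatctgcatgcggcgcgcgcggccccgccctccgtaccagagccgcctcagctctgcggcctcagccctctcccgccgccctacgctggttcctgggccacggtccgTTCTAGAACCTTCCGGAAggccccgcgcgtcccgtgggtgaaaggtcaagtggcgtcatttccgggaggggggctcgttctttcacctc
Hspa5 and Calr held 1 ERSE each and Hsp90b1 held 2, on opposite strands. The match began 65 bases before the start in Hspa5, 162 in Calr, and 212 and 107 in Hsp90b1. The other ERSE members were Canx, Creld2, Dnajc3 and Pdia6, whose matches began 145, 126, 105 and 98 bases before the start. The ERSE-II of Herpud1 began 52 bases before the start and that of Dnajb11 at 7 bases after it. Hspe1 and Hspd1, the mitochondrial chaperonin pair, lie head to head, and the windows of both hold the same pair of overlapping heat shock elements. The others with a heat shock element were Dnajb6, Hsph1 and Sec62.

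Each array held 19147 to 19621 values, and its centred values had an SD of 0.32 to 0.53 units, widest at 2 h. The one measurable error was how far 2 probes for the same gene differed, over 3034 genes. Its SD in the change from 0 h, for the 4 later arrays in order of time, was 0.27, 0.38, 0.24 and 0.24 units. A change is called higher or lower when it is at least 2 times this SD, which is 0.55, 0.76, 0.47 and 0.48 units in order of time. This error covers spots and probes within these arrays and not cultures, animals or labelling. Across these genes the changes of the 2 probes correlated weakly, with r of 0.06, 0.10, 0.20 and 0.21 in order of time. Of the 49 members with several probes, 19, 18, 17 and 20 had all probes changing in the same direction at these times. LPS-induced genes were higher at 7 h, with Il1a at 1.99 and Cxcl10 at 1.28 units. The B and plasma cell list, cells rich in ER (6 of 8 measured), had a median log ratio between -0.05 and -0.01 units on every array, and neutrophil markers (5 of 6) one between -0.21 and -0.11. Stromal markers (5 of 5) lay between -0.66 and -0.46, T cell markers (2 of 5) between -0.07 and 0.49, and the 1 measured dendritic cell marker of 4, Zbtb46, between -0.21 and 0.05.

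The folding genes did not move as a block at any time. In order of time, the median changes of the 90 members were 0.0093, 0.0070, 0.014 and -0.0046 units, beside 0.012, 0.027, 0.0049 and 0.010 over all genes. At 0.5 h, 6 members were higher (6.67%) and 1 was lower (1.11%), where 4.3% and 0.357% of all genes were called. At 2 h, 3 were higher and 1 was lower (3.33% and 1.11%), against 4.81% and 0.23% of all genes. By 7 h, 4 were higher and 3 lower (4.44% and 3.33%), against 2.95% and 3.19%. The 21 h array had 3 higher and 1 lower (3.33% and 1.11%), against 3.87% and 2.15%. These shares are near the background, so single members and their probes, rather than the count, carry the description that follows. At a fixed size of 1 unit, 2 members were higher at 2 h, Pdia4 and Dnajc24, and 0 were lower, against 2.72% and 0.092% of all genes. Their changes at 7 h were -0.13 and -0.06 units. No member reached 1 unit either way at 0.5 h (1.47% and 0.023% of all genes did), at 7 h (0.276% and 0.127%) or at 21 h (0.253% and 0.0575%). When the threshold was divided by the square root of the number of probes, which favours genes with several probes, 8 members were higher and 4 lower at 7 h (4.71% and 4.28% of all genes), and 4 higher and 1 lower at 21 h (6.05% and 3.23%). By this threshold 7 were higher and 1 lower at 0.5 h (5.53% and 0.564%), and 4 higher and 1 lower at 2 h (6.33% and 0.426%). Members that passed this way and not otherwise were Pdia3, Hspa5, Spcs2 and Dnajc25 at 7 h on the higher side and Dnajc5b on the lower, and Pdia3 at 21 h, besides Dnaja2 at 0.5 h and Dnajc25 at 2 h, both higher.

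**Figure D1:**
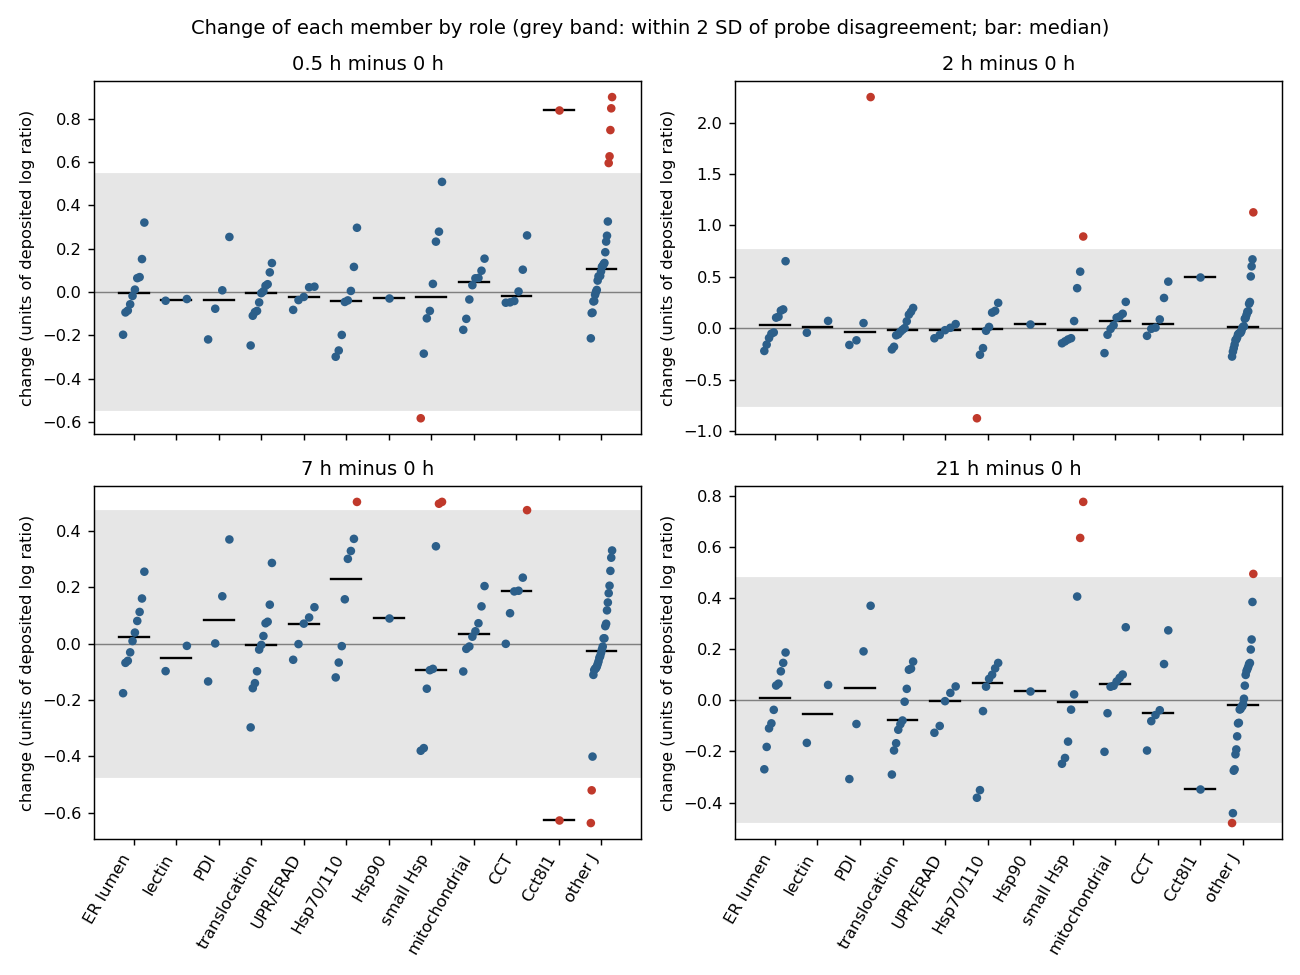
Change of each of the 90 members from 0 h (y axis, units of the deposited log ratio) by role (x axis) at 0.5, 2, 7 and 21 h, 1 array per time. Points are genes, bars are role medians and the grey band is 2 SD of probe disagreement on either side of 0; red points lie outside it, 7, 4, 7 and 4 genes in order of time.

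The regulators of the unfolded protein response stayed close to their level before LPS. Xbp1, the transcription factor made by splicing under ER stress, had log ratios of 0.02, -0.02, 0.03, 0.02 and 0.07 units on the 0, 0.5, 2, 7 and 21 h arrays. This range of 0.09 units was the narrowest of all 90 members, and its 3 probes went different ways, from -0.11 to 0.07 units at 7 h. The probe annotation does not tell spliced from unspliced Xbp1. Atf4, which drives amino acid and stress genes, was at 0.01, -0.01, -0.08, 0.14 and 0.04 units. Ddit3, the pro-apoptotic factor CHOP, was at -0.01, 0.01, -0.08, 0.06 and -0.02. Its changes moved to -0.47 at 2 h and -0.32 at 21 h after subtraction of a running median taken over neighbouring probe numbers, so its small value at those times depends on the setting. Herpud1, an ER-membrane protein of ER-associated degradation whose promoter holds the ERSE-II printed above, was at -0.04, -0.02, -0.0017, 0.05 and -0.17 units. Sel1l, the adaptor of the Hrd1 ubiquitin ligase, was at 0.20, 0.12, 0.18, 0.14 and 0.10. None of these 5 genes was called at any time, and their median change was 0.07 units at 7 h and -0.0035 at 21 h. With 2.95% to 4.81% of all genes higher at a given time and 0.23% to 3.19% lower, no call among 5 is near the background.

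Among the chaperones inside the ER, Hspa5 had the clearest course, falling short of the 2 SD threshold. Hspa5 (gene ID 14828), the Hsp70 of the ER known as BiP, had log ratios of 0.19, -0.0032, 0.04, 0.45 and 0.16 units in order of time. All 4 of its probes were below their 0 h value at 0.5 h, with changes of -0.26 to -0.16 units, and all 4 were above it at 7 h, by 0.13 to 0.41. At 21 h the changes of the 4 probes ran from -0.24 to 0.10 units. The mean changes were -0.20, -0.16, 0.26 and -0.04 units. From 0.5 h to 7 h, its lowest and highest arrays, the mean change was 0.45 units, where 2 SD was 0.69. Hsp90b1, the Hsp90 of the ER, had the highest ratio to the embryo among the ER chaperones at 0 h, with 0.38 units, and then 0.39, 0.48, 0.31 and 0.27. Sdf2l1, a cofactor of Hspa5, was at 0.0049, 0.07, 0.19, 0.12 and 0.19 units. Creld2, an ER-stress-inducible ER protein, was at 0.05, 0.04, -0.04, 0.06 and 0.17. Manf, a small ER protein secreted under stress, was at 0.13, 0.03, -0.09, -0.05 and 0.04. Of the ER J proteins, which work with Hspa5, Dnajb11 had changes of 0.16 units at 7 h and 0.15 at 21 h, Dnajc3 of 0.08 and 0.06, and Dnajb9 of 0.04 and 0.06. Dnajc10, a J protein with thioredoxin domains, had a change of 0.65 units at 2 h on its 1 probe and of -0.06 at 7 h. The 10 genes of this group had a median change of 0.02 units at 7 h and 0.01 at 21 h. None was called, which is near the background of 2.95% to 4.81% higher and 0.23% to 3.19% lower over all genes.

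The lectin chaperones Calr and Canx, which hold glycoproteins, were above the embryo on every array and moved little. Calr was at 0.25, 0.21, 0.21, 0.16 and 0.09 units in order of time, and Canx at 0.20, 0.16, 0.27, 0.19 and 0.26. The lowest value of Calr was that at 21 h, where both of its probes were below 0 h, with changes of -0.16 and -0.17 units. Its mean change there, -0.17 units, lies within the threshold.

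Among the members, Pdia3 was the only disulfide isomerase with several probes, and they shared a late increase. Pdia3 (gene ID 14827), known as ERp57, acts on glycoproteins bound by Calr and Canx and is also part of the MHC class I loading complex. Its log ratios were -0.18, -0.40, -0.30, 0.19 and 0.19 units. The 3 early arrays were all below the 2 late ones, for each of its 3 probes. From 0 h the change was 0.37 units at 7 h (3 probes of 0.30 to 0.46) and 0.37 at 21 h (0.32 to 0.46). Both are under 2 SD for a single probe and above the 0.27 and 0.28 units that 3 probes give. From 0.5 h to 21 h, a pair of arrays that shares none with 7 h against 0 h, it was 0.59 units (0.50 to 0.64), and it was the only member higher in that comparison under the threshold for the number of probes, which was 0.38 units. The change at 7 h was 0.29 units without centring, 0.41 with quantile normalization and 0.43 with the running median removed. Pdia4, an isomerase with 3 thioredoxin domains, went from 0.28 units at 0 h and 0.20 at 0.5 h to 2.52 at 2 h, and back to 0.14 at 7 h and -0.03 at 21 h. That peak of 2.25 units over 0 h, the highest change of any member, rests on 1 probe on 1 array; quantile normalization put it at 1.31 units. Pdia6 had changes of 0.17 units at 7 h and 0.19 at 21 h, and Pdia2, a pancreatic isomerase, of 0.0012 and -0.09, on 1 probe each. P4hb, an ER oxidation gene outside the naming rule, had changes of 0.0064 units at 7 h and 0.22 at 21 h. Its 2 probes were both above 0 at 21 h (0.09 and 0.35), and its mean was within 2 SD.

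The members that serve entry into the ER stayed within 2 SD at every time. Serp1, a translocon gene outside the naming rule, was higher at 7 h and 21 h and is given with the partners below. Of the 11 genes of the Sec61 channel, the TRAP complex and the signal peptidase, none was called at any time, and the median change was -0.0042 units at 7 h and -0.08 at 21 h. Over all genes 2.95% to 4.81% were higher at a given time and 0.23% to 3.19% lower. No call among 11 genes is near these shares. Sec61a1, the pore subunit, was at 0.07, -0.17, 0.04, 0.07 and -0.22 units, while the small subunits Sec61b and Sec61g were at 0.08 and -0.16 units of change at 7 h. The TRAP subunits Ssr1, Ssr2, Ssr3 and Ssr4 changed by 0.07, 0.03, -0.02 and -0.14 units at 7 h. Spcs2, a signal peptidase subunit, was at -0.16, -0.25, -0.17, 0.13 and -0.0096 units. At 7 h it lay 0.29 units above 0 h, past only the threshold for the number of probes. Its 5 probes ran from -0.01 to 0.72 units there, so the size of that change differs with the probe. At 7 h itself the 5 probes lay close together, between 0.07 and 0.17 units, and at 0 h they spread from -0.61 to 0.14. Spcs1, its partner, had changes of -0.30 units at 7 h and -0.09 at 21 h.

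**Figure D2:**
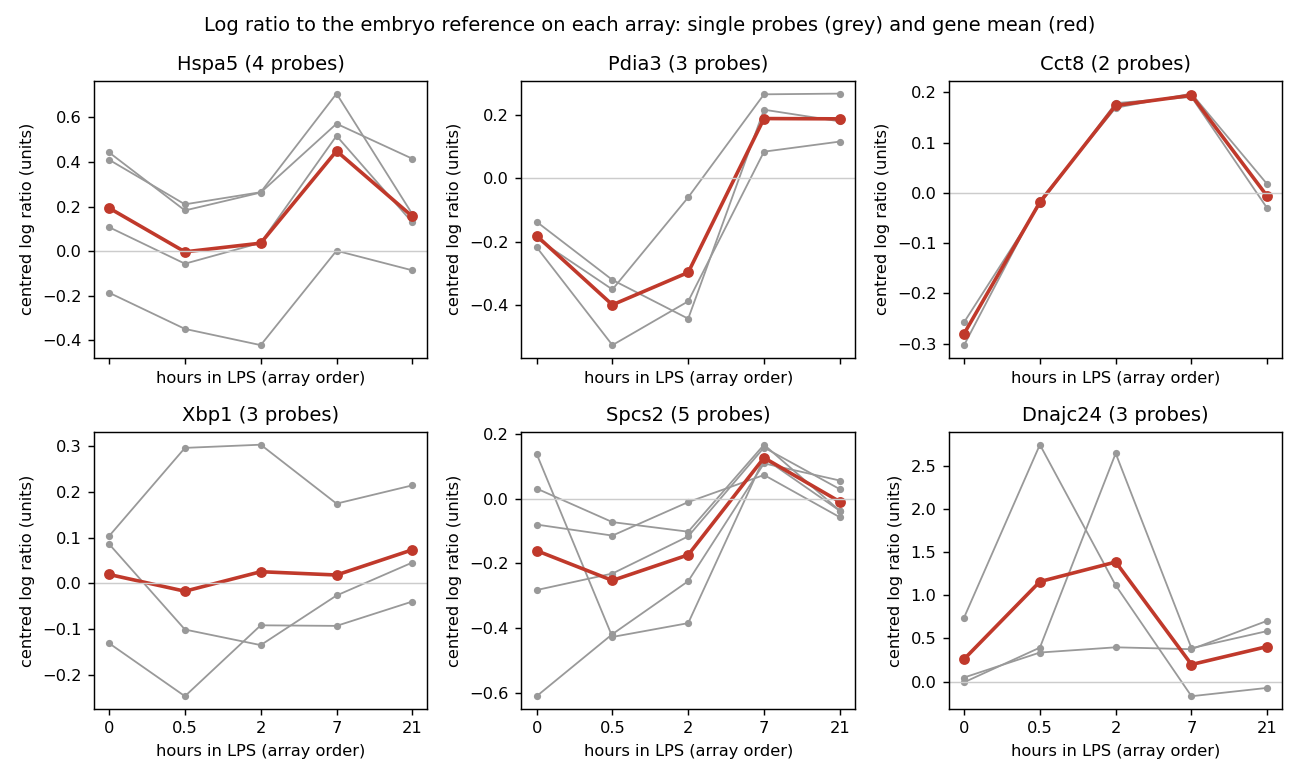
Centred log ratio to the embryo reference (y axis, units; scales differ between panels) on the 5 arrays in order of time (x axis) for 6 members, with single probes in grey and the gene mean in red. The probes of Pdia3 and Cct8 run together, those of Hspa5 are parallel at different levels, and those of Xbp1 go different ways. The Spcs2 probes are spread at 0 h and close together at 7 h, and 2 of 3 Dnajc24 probes each peak on 1 array.

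Set against their promoters, no member with an ER stress element was called at any time. At 7 h the 9 members with ERSE or ERSE-II had a median change of 0.08 units, ranging from -0.10 in Calr to 0.26 in Hspa5, with 6 of 9 above 0 and none called. At 21 h the median was 0.06 units, from -0.17 in Calr to 0.19 in Pdia6, again with none called. The 13 other genes on the array with such an element had medians of 0.03 and -0.0063 units at these times, with 1 called higher at each. At 2 h 2 of these 13 were called higher, up to 1.89 units. Over all genes 4.81%, 2.95% and 3.87% were higher at 2, 7 and 21 h, so no call among 9 members is near that share. The 5 members with a heat shock element were all above 0 at 7 h, with a median of 0.20 units and a range from 0.13 to 0.33. None of them passed 2 SD. The 40 other genes with this element had a median of -0.02 units at 7 h, with 14 of 40 above 0 and none called. Hspe1 and Hspd1, which share the printed promoter, changed by 0.20 and 0.13 units at 7 h, but the 2 probes of Hspe1 disagreed in sign (-0.16 and 0.57) and those of Hspd1 ran from -0.05 to 0.27.

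**Figure D3:**
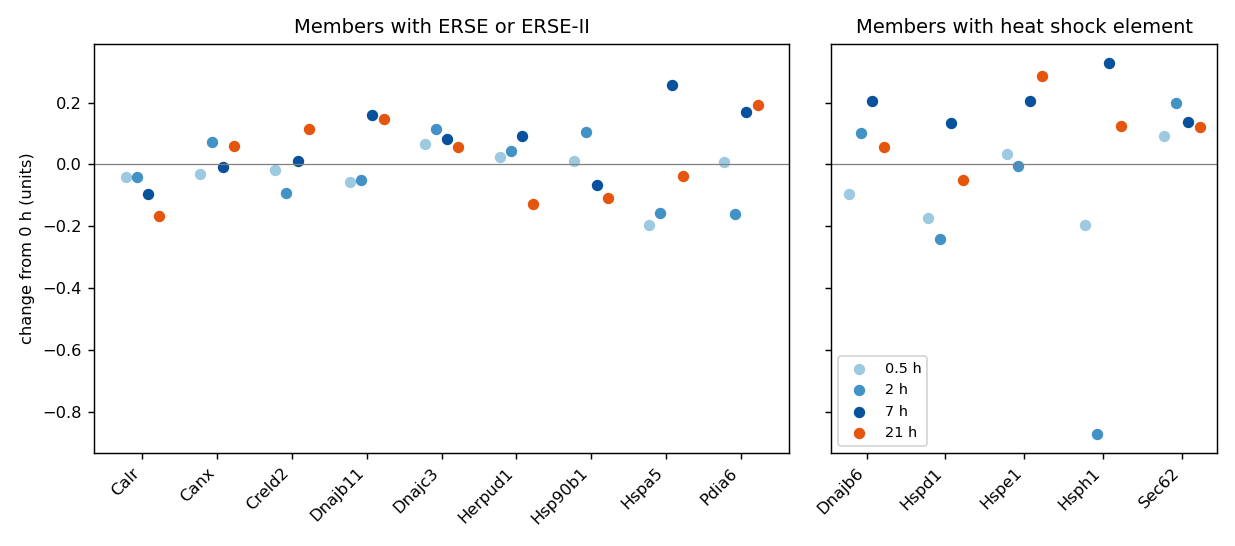
Change from 0 h (y axis, units) of the 9 members with an ERSE or ERSE-II and the 5 with a heat shock element in the promoter window, at 4 times (colours). The first set lies between -0.20 and 0.26 units; the second is above 0 at 7 h throughout, and Hsph1 at 2 h is at -0.87.

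Of the 8 cytosolic Hsp70 and Hsp110 genes, Hspa1a was the one called at 7 h, where 2.95% of all genes were higher and 3.19% lower. None was called at 21 h (3.87% and 2.15% of all genes). Hspa1a, the stress-inducible Hsp70, had log ratios of -0.04, -0.07, -0.02, 0.47 and 0.11 units in order of time. Its change of 0.50 units at 7 h was past 2 SD. The call ended without centring (0.42). It also ended with the 0.5 h array as baseline (0.54, where 2 SD was 0.69). It held with quantile normalization, cyclic loess and the running median removed. The call rests on 1 probe, and the neighbouring gene Hspa1b is nearly identical in sequence, so the 2 genes may share this signal. Hspa8, the constitutive Hsp70, was at 0.16, -0.11, -0.10, 0.31 and -0.23 units. Hspa2 was at -0.16, -0.15, -0.18, 0.22 and -0.07, and Hspa4, an Hsp110-type exchange factor, at 0.29, -0.01, 0.09, 0.28 and -0.07. Hspa14, at 0.13, 0.24, 0.28, 0.06 and 0.09 units, and Hspa1l, at 0.06, 0.36, 0.31, -0.06 and 0.12, had their lowest value at 7 h. The step from 7 h to 21 h was examined after these values were seen and is given as a description. With 2 SD at 0.33 units for this step, 3 of the 90 members were lower (2.52% of all genes were) and none was higher (2.72%). These were Hspa8 (-0.54), Hspa1a (-0.36) and Hspa4 (-0.34), each on 1 probe. The Hsp70 family genes with several probes were all within 2 SD. Of these, the ER member Hspa5 was at -0.29 units with all 4 probes below 0. Hspa13 was at -0.15, Hspa9 at 0.01, Hspa14 at 0.02 and Hspa1l at 0.17.

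Hsph1, the Hsp110 whose window holds a heat shock element, was lower at 2 h. Its log ratios were -0.39, -0.59, -1.26, -0.06 and -0.26 units, so the 2 h array alone accounts for the call of -0.87 units, on 1 probe. Hsp90aa1, the inducible cytosolic Hsp90, kept within 0.12 units over the 5 arrays, from -0.11 at 0.5 h to 0.01 at 7 h. Hspbp1, an Hsp70 exchange factor, was at 0.30 units of change at 7 h, and Dnaja1, a J protein partner of Hspa8, at 0.33 with both of its probes above 0 (0.28 and 0.39). At 21 h these 2 were at 0.10 and 0.20 units.

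In the chaperonin CCT, which folds actin and tubulin, the 7 h array had the highest median. Cct8 (gene ID 12469) was at -0.28, -0.02, 0.17, 0.19 and -0.0067 units, with 0 h the lowest array for both of its probes. Its changes were 0.26, 0.45, 0.47 (probes of 0.45 and 0.50) and 0.27 units in order of time. The change at 7 h lay just past 2 SD, also with the running median removed. It fell short of 2 SD with cyclic loess (0.47), quantile normalization (0.50) and without centring (0.39). With the 0.5 h array as baseline it was 0.21 units, where 2 SD was 0.69. Of the 6 CCT genes, 5 were above 0 at 7 h, with a median change of 0.19 units. The changes were 0.23 in Cct6a, 0.19 in Cct4, 0.19 in Cct3 and 0.11 in Cct5. At 21 h the median change was -0.05 units, and that of Cct7 was -0.20. Tcp1, the CCT subunit that the naming rule leaves out, had changes of 0.02 units at 7 h and -0.10 at 21 h.

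No mitochondrial member was called, where 2.95% to 4.81% of all genes were higher at a given time and 0.23% to 3.19% lower. For a group this small that is near the background. The 8 genes, among them Hspa9, Hspd1 and Hspe1 of the matrix and Dnajc19 and Dnajc15 of the import motor, had a median change of 0.03 units at 7 h and 0.06 at 21 h. The changes at 21 h ran from -0.20 units in Dnajc11 to 0.29 in Hspe1.

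Among the small heat shock proteins 2 that are known for muscle were higher late. Hspb2 had log ratios of -0.37, -0.09, 0.52, 0.13 and 0.40 units in order of time. Hspb3, which forms complexes with Hspb2, was at -0.30, -0.06, 0.26, 0.21 and 0.34. In both genes the 0 h array was the lowest of the 5. The changes of Hspb2 were 0.89 units at 2 h, 0.50 at 7 h and 0.78 at 21 h, and those of Hspb3 were 0.55, 0.50 and 0.63, of which 0.55 at 2 h was not past 2 SD. The call of Hspb2 at 2 h ended when the 0.5 h array was the baseline (0.61) or the running median was subtracted (0.66). Each rests on 1 probe. With the 0.5 h array as baseline the changes at 21 h were 0.50 and 0.40 units, under the 0.66 units that 2 SD made there. At 7 h both calls ended without centring (0.41 and 0.42), with quantile normalization (0.51 and 0.54) and with the running median removed (0.39 and 0.43). The 5 genes of the embryo reference list, with the muscle gene Myh3 among them, were also above 0 h, by 0.20 to 0.52 units at 7 h and 0.17 to 0.55 at 21 h, and the part of the reference in these changes was not tested. Hspb8, a partner of the autophagy co-chaperone Bag3, was at 0.22 units at 0 h and between 0.57 and 0.73 on all 4 later arrays, with changes of 0.51, 0.39, 0.35 and 0.41 that stayed within 2 SD. Hspb1, the Hsp27 gene, was at -0.09 units of change at 7 h and -0.04 at 21 h. Hspb11, which is better known as a subunit of ciliary transport, was lower at 0.5 h (-0.58 units, and -0.52 without centring, which is not past 2 SD), and its change at 7 h was -0.37. Hspbap1, a binding protein of Hspb1, had a change of -0.38 units at 7 h.

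The J proteins not placed in the ER-lumen or mitochondrial groups numbered 26 genes, wherever in the cell they lie. They had 5 calls at 0.5 h, 1 at 2 h and 2 at each late time. Of all genes, 4.3% were higher at 0.5 h and 4.81% at 2 h. At 7 h 2.95% were higher and 3.19% lower, and at 21 h 3.87% and 2.15%. Higher at 0.5 h were Dnajc24 (0.90 units), Dnajb7 (0.85), Dnajc5b (0.75), Dnajc18 (0.63) and Dnajb13 (0.60 units). Cct8l1 was higher too, by 0.84 units. Except for Dnajb13, each of these has a probe whose log ratio at 0.5 h was above 1 unit, as do Dnaja2 and Dnajb3, whose means were not past 2 SD. The 7 such probes, of 32 member probes in this stretch and 188 in all, had numbers from 3555 to 5758 on the array. Over the whole stretch, whose ends these 7 probes set, 8.67% of the 1-gene probes (148 of 1707) were above 1 unit at 0.5 h. Outside it 1.78% were (217 of 12169). After subtraction of the running median over neighbouring probe numbers, the 6 higher genes at 0.5 h were still past 2 SD, from 0.58 units in Dnajc18 to 0.84 in Dnajc24. The running median follows the middle of the neighbouring probes, not the 8.67% of the stretch above 1 unit. It could therefore take little from these changes. They were also past 2 SD with cyclic loess and without centring. Leaving out centring raised every change at 0.5 h by the same amount under an unchanged threshold, so it could not end a higher call. The change of the second probe of Dnajb7, number 5717, was -0.12 units while that of the first was 1.81. Dnajc24, which takes part in the diphthamide modification of an elongation factor, had probe changes of 2.01, 0.29 and 0.40 units at 0.5 h. At 2 h the probe that had changed by 2.01 was 0.37 units above 0 h, and the one that had changed by 0.40 was 2.66 above it. The call of its mean at 2 h (1.13 units) ended with quantile normalization (0.54) and cyclic loess (0.48). With quantile normalization only Dnajc24 remained past 2 SD at 0.5 h (0.51 units), and Dnajb7 was at 0.22, Cct8l1 at 0.30, Dnajc18 at 0.34, Dnajc5b at 0.38 and Dnajb13 at 0.46. The lower calls at 7 h, Dnajc18 (-0.64 units), Cct8l1 (-0.62) and Dnajb7 (-0.52), and at 21 h, Dnajb7 (-0.48), fell on genes of the same group. Each was above the embryo reference at 0 h, by 0.39 to 0.55 units, and between -0.24 and -0.05 at 7 h. Removing the running median ended the calls of Cct8l1 (-0.43) and Dnajb7 (-0.34) at 7 h and of Dnajb7 at 21 h (-0.33). Dnajc25 was the other J protein called, higher by 0.49 units at 21 h. Its 4 probes were all above 0 there, from 0.18 to 0.90 units, and at 2 h from 0.32 to 1.61, but their numbers lie between 8218 and 8489, and the call at 21 h ended with the running median removed (0.21 units), without centring (0.43), with cyclic loess (0.41) and with the 0.5 h array as baseline (0.31).

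**Figure D4:**
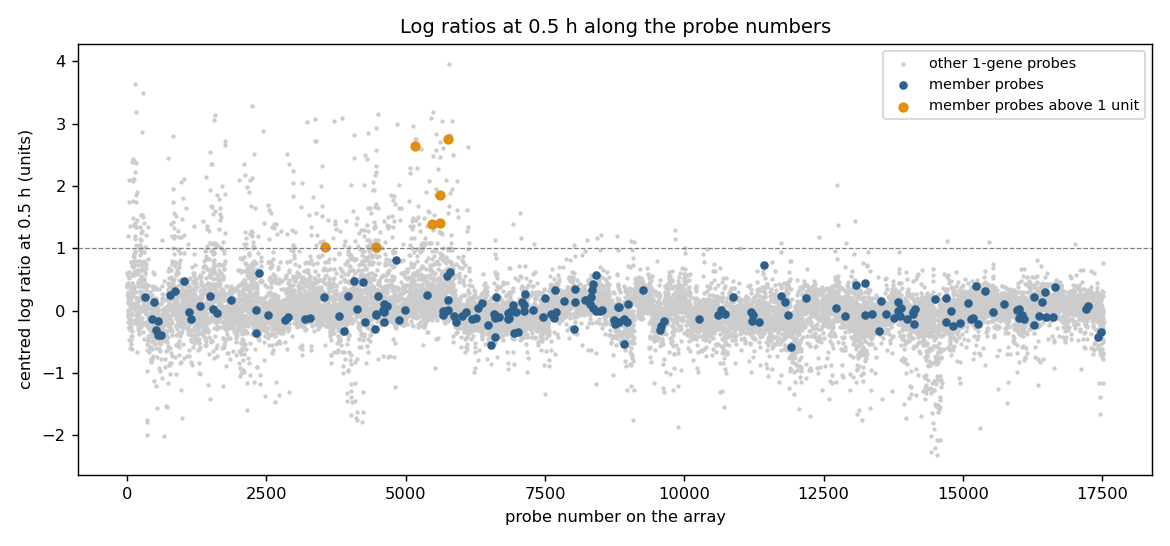
Centred log ratio at 0.5 h (y axis, units) of all 1-gene probes valued on all arrays, along their number on the array (x axis), with the 188 member probes in blue and the 7 of them above 1 unit in orange. The orange probes lie between numbers 3555 and 5758.

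Late changes were compared in pairs of arrays with none in common, 7 h against 0 h and 21 h against 0.5 h. Over the 90 members, Pearson's r was 0.68 and Spearman's rho 0.60, and without the 7 members that have a probe above 1 unit at 0.5 h these were 0.47 and 0.53. Over all 8692 genes r was 0.58 and rho 0.55. These coefficients run across genes, which share arrays and the reference RNA, so they describe the data and carry no p. In both pairs 34 members (37.8%) were above 0 and 32 (35.6%) below 0, whatever the size of the change, beside 36.8% and 31.8% of all genes. Without those 7 genes the numbers were 34 and 25 of 83. Between 0.5 h and 21 h no member was higher past 2 SD (0.817% of all genes were) and 6 were lower (5% were): Dnajb7 (-1.33 units), Cct8l1 (-1.18), Dnajc18 (-1.07), Dnajc5b (-1.02), Dnajb13 (-0.87) and Dnajc24 (-0.75). Leaving out the 7 genes left 1, Dnajb13. Those 7 were picked by a high value at 0.5 h, the array subtracted in this comparison. Fewer lower calls and smaller coefficients without them are therefore partly built into that choice. The threshold for the number of probes gave 1 higher, Pdia3, and 7 lower (1.38% and 5.94% of all genes), and at 1 unit 0 were higher and 4 lower (0.161% and 2.68%).

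**Figure D5:**
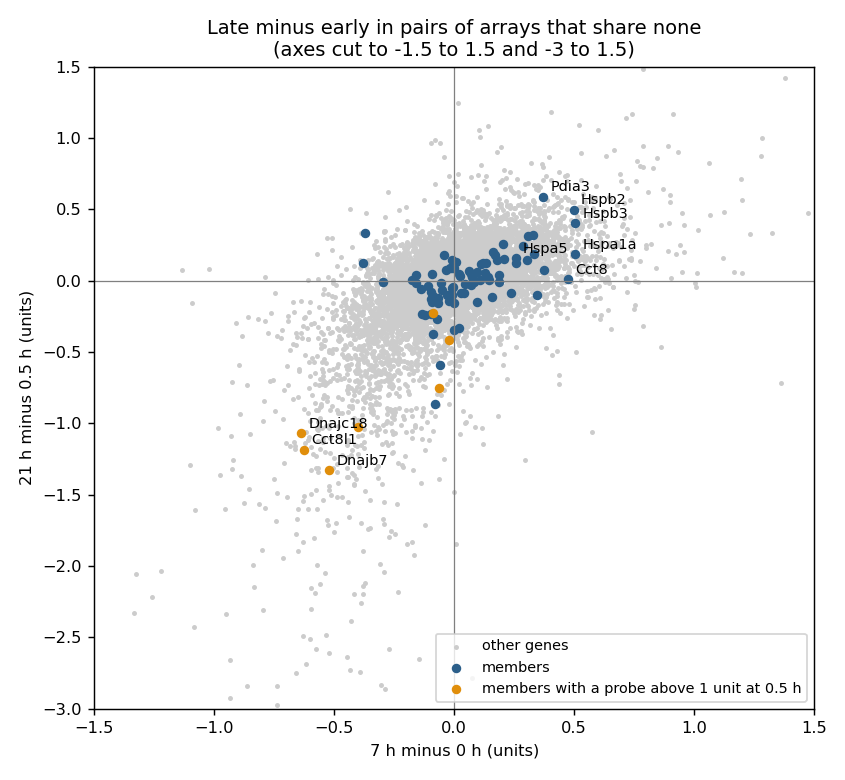
Change from 0 h to 7 h (x axis, units) against change from 0.5 h to 21 h (y axis, units) for all genes (grey) and the 90 members, with the 7 that have a probe above 1 unit at 0.5 h in orange. Pdia3 is highest among members on the y axis, at 0.59 units, and Dnajb7 lowest, at -1.33; the axes leave out genes beyond their ends.

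Genes that work with the members were taken from a list of partners, of which 85 were measured. Their median change was 0.04 units at 7 h and 0.01 at 21 h, with 5 higher at 7 h (5.88%), 3 at 21 h (3.53%) and none lower at either time. Over all genes 2.95% were higher and 3.19% lower at 7 h, and 3.87% and 2.15% at 21 h. The 5 at 7 h were Serp1, a protein that stabilises the translocon under ER stress (1.06 units, 2 probes of 0.73 and 1.39), Stip1, the adaptor between Hsp70 and Hsp90 (0.71), Clpp, a mitochondrial protease (0.71), Os9, an ER lectin of degradation (0.58), and Chac1, a target of Atf4 and Ddit3 (0.54). At 21 h Clpp (0.79), Serp1 (0.73) and Lonp1, another mitochondrial protease (0.65), were higher. Apart from Serp1, each of these calls rests on 1 probe. From 0.5 h to 21 h Serp1 was the only partner higher (0.82 units), while Clpp (0.44) and Lonp1 (0.56) stayed within 2 SD. No partner was called at 0.5 h or 2 h, where 4.3% and 4.81% of all genes were higher and 0.357% and 0.23% lower. The oligosaccharyltransferase, which adds glycans to proteins entering the ER, had a median of -0.03 units at 7 h over 10 genes, from Ddost at -0.13 to Krtcap2 at 0.39. Signal recognition particle, receptor and related translocation genes (11) had a median of -0.14 units at 7 h, with Sec11c at -0.38 and Srp14 at -0.32. ER oxidation, cyclophilin and quality control genes (13) had one of -0.08, from Erp29 at -0.30 to Uggt2 at 0.21, and ER-associated degradation genes (13) one of 0.11, with Syvn1 at -0.09. Stress response genes (10) were at 0.15, with Creb3l2 at -0.32 and Mbtps1 at -0.25, heat shock regulators and co-chaperones (15) at 0.05, with Ahsa1 at 0.27 and Bag5 at -0.19, and prefoldin and CCT partners (7) at 0.02. Mitochondrial partners (6) were at 0.14, with Htra2 at -0.14.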

How the data were processed

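Total RNA was isolated on columns and labelled indirectly with amino-allyl cDNA, per the labels, which name Cy3 and no other dye. The authors' deposited table holds a signed log ratio for 19828 probes on 5 arrays; its base, direction, background correction, normalization and filters were not given in the sources used here. Column medians of the deposited values ran from -0.01 to 0.13 units. Of the probes, 14759 had 1 gene in the platform annotation, 170 several and 4899 none listed; gene IDs of 14628 were found in a RefSeq gene table (GRCm38.p6), which changed 0 symbols.

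Each array was centred on its median over the 18391 probes valued on all 5 arrays, and the 1-gene probes were averaged by gene. Of 195 member probes, 7 lacked a value on some array and were left out. A change is a difference of 2 arrays. It was called at 2 times the probe SD, that is, the SD of the difference between a gene's 2 lowest-numbered probes over the square root of 2. With 1 array per time there was no test, and the number of arrays limits the precision.

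Members, lists and thresholds were chosen with earlier results of these data known. Named genes were members past 2 SD, the 6 highest and 6 lowest at each time, the ER stress genes, and partners past 2 SD or at the ends of their group; not every one is printed. Motifs were searched in the promoter windows of 75 members; protein sequences were not used here. Work used Python 3.11.15, pandas 2.3.3, numpy 2.4.6, matplotlib 3.10.9, R 4.3.3 and limma 3.58.1.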

Additional observations from a re-analysis of the deposited data

How the results depend on the processing

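Without a second array per time, these counts have no replicate check, and dim spots could not be left out. No paired analysis was possible because each time has 1 array. No member's called value changed sign under any setting run; of the single-gene values under other settings, 562 moved by less than 1 SD of probe disagreement and 23 by more. The counts and medians below are those that moved; the cause was not tested.

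Without centring, the median of all genes shifted by -0.08 units at 7 h and -0.10 between 0.5 h and 21 h, and the member medians were 0.0667, 0.0595, -0.0712 and -0.0653 units in order of time, and -0.12 from 0.5 h to 21 h; 0 members were then lower at 0.5 h, 0 higher at 7 h and 2 lower at 21 h. Quantile normalization left 1 higher at 0.5 h, 1 higher at 7 h and 2 lower at 21 h. Cyclic loess gave 4 lower at 21 h. With the running median over 100 probes on either side removed, the median at 7 h was 0.0461, with 2 higher and 1 lower. With the 0.5 h array as baseline, 1 member was higher and 3 lower at 2 h, 0 and 5 at 7 h, and 0 and 6 at 21 h. Probes counted singly gave 3 lower (0.5 h), 5 higher (2 h), 8 higher (7 h), and 10 higher and 4 lower (21 h). Probes valued on the 2 arrays compared gave 0 lower at 21 h. At a threshold of 1 unit, 0 members were higher or lower at 0.5, 7 and 21 h and 0 were lower at 2 h. Chosen after seeing the data were the threshold for the number of probes, with 8 higher at 7 h and 1 higher from 0.5 h to 21 h, and leaving out the members with a probe above 1 unit at 0.5 h, which gave 1 higher at 0.5 h, 0 lower at both late times and 1 lower from 0.5 h to 21 h.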
